A study of Mus musculus with 8 samples.

Results

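MAP kinases (Mapk genes), the kinases that activate them in series (Map2k and Map3k genes) and the dual-specificity phosphatases (Dusp genes) were followed in mouse prostate RNA. The members were all genes of the count table whose symbol is Mapk, Map2k, Map3k or Dusp followed by a number. The rule found 61 of 27036 genes, with 59 symbols, since Dusp8 and Map3k4 each have a second gene entry. There were 13 Mapk, 7 Map2k, 16 Map3k and 25 Dusp genes. Of these, 52 had more than 1 CPM (read counts scaled to library size) in at least 2 libraries and were tested: 11 Mapk, 7 Map2k, 15 Map3k and 19 Dusp genes.

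The study compared total RNA, depleted of ribosomal RNA, from 3 groups of mouse prostate tissue. The 3 WT libraries came from control prostates. The paper describes the WT animals as R26 mTmG/+:Osr1 Cre/+ mice, which carry a reporter and the Cre driver but no human transgene, while the labels say only WT-control. The 3 PIN libraries came from prostatic intraepithelial neoplasia, a precursor lesion, and the 2 PCa libraries from prostatic adenocarcinoma. Both lesions arose in mice of the genotype R26 mTmG/hAR:Osr1 Cre/+. Their Osr1-driven Cre switches on a human androgen receptor transgene and a membrane GFP reporter in cells of the Osr1 lineage. The paper calls the WT mice matched in age, but the ages behind these libraries are not given in the sources used here, so any age difference between PIN and PCa cannot be told apart from lesion stage. The labels do not say whether each library came from a separate animal. The mice had a mixed C57BL/6 and 129S1/SvImJ background, and the lesions were checked under the microscope before RNA extraction. The human transgene was not analysed here.

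In a MAP kinase cascade a Map3k phosphorylates a Map2k, which phosphorylates a threonine and a tyrosine in the activation loop of a MAP kinase. The ERK arm, which includes Mapk3, runs from growth factor receptors through RAS and RAF. The p38 arm (Mapk11, Mapk12, Mapk13 and Mapk14) and the JNK arm (Mapk8, Mapk9 and Mapk10) answer mainly to stress and cytokines. Many dual-specificity phosphatases remove both phosphates and so switch the kinases off, and some of them are themselves induced by MAP kinase signalling. Messenger RNA levels, the only quantity measured, say nothing about how much of each kinase is phosphorylated.

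The stretch of each kinase gene that encodes the activation loop is shown. In all but Mapk6 it carries the site that the Map2k kinases act on and the Dusp phosphatases reverse. The capitals mark the 3 codons of the phosphorylated motif, which read threonine-glycine-tyrosine in the p38 genes, threonine-glutamate-tyrosine in Mapk3, an ERK gene, and threonine-proline-tyrosine in the JNK genes. In Mapk6, an atypical kinase, the same position reads serine-glutamate-glycine.
Mapk11: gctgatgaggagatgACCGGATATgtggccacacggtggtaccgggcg
Mapk12: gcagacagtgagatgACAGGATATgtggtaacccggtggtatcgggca
Mapk13: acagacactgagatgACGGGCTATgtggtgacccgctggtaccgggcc
Mapk14: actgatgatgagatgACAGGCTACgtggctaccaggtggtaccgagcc
Mapk3: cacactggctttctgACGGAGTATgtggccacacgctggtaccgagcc
Mapk8: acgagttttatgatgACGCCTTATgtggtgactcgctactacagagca
Mapk9: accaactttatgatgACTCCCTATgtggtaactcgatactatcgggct
Mapk6: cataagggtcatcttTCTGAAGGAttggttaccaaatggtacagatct

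All coordinates are in the mm9 build, and each stretch is coding sequence read from the GENCODE vM1 transcript. The Mapk13 stretch lies in exon 7 of 12 on the plus strand (chr17:28913274-28913321), and the Mapk14 stretch in exon 7 of 12 of its neighbour on the same strand (chr17:28865329-28865376). Those of Mapk12 (chr15:88965082-88965129) and Mapk11 (chr15:88976272-88976319) lie on the minus strand, each also in exon 7 of 12. The Mapk3 stretch lies in exon 4 of 7 on the plus strand (chr7:133906957-133907004). Mapk8 (chr14:34206165-34206212, minus strand) and Mapk9 (chr11:49686317-49686364, plus strand) gave the JNK stretches, each in exon 6 of 12. The Mapk6 stretch spans the junction of exons 2 and 3 of 6 (chr9:75243420-75245391, minus strand). Over these 48 bases Mapk13 shared 40 with Mapk12, 37 with Mapk14 and 35 with Mapk11, and 21 to 32 with Mapk3, Mapk6, Mapk8 and Mapk9. Mapk8 and Mapk9 shared 37 bases.

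The libraries held 21751803 to 29730420 counts. Smooth muscle markers (8 genes) summed to 2130 to 5200 CPM in WT, 3400 to 6210 in PIN and 40.5 to 63.3 in PCa, and luminal epithelial markers (8 genes) to 10200 to 31700, 10700 to 17300 and 2180 to 4150. Proliferation genes (7) summed to 53.6 to 62.5, 54.8 to 116 and 441 to 545 CPM. Basal epithelial (5 genes) and endothelial (5 genes) sums in PCa were 546 to 720 and 93.2 to 99.5 CPM, against 358 to 778 and 66.6 to 91.3 in WT and 530 to 557 and 83.8 to 103 in PIN. In PCa 2 the basal sum was mostly Itga6, at 519 CPM, while Krt5, Krt14 and Krt15 had 4.70, 0.309 and 1.13 CPM there against at least 28.1, 12.4 and 57.3 in every other library. Fibroblast markers (7 genes) summed to 523 to 1040 in WT, 768 to 997 in PIN and 289 to 750 in PCa, and skeletal muscle markers (11 genes) to 70.2 to 211, 58.7 to 275 and 3.39 to 15.6. Leukocyte markers (10 genes) reached 424 CPM in PCa 1 against 39.1 in PCa 2 and 57.5 to 150 in the other libraries. Seminal vesicle genes (6) summed to 14800 CPM in WT 1, 3730 in PCa 1, 285 in PCa 2 and at most 28.04 elsewhere. No list had a gene at 0 in all libraries. The smooth muscle, skeletal muscle, luminal and proliferation sums of PCa did not overlap those of the other groups, and their part in the PCa results was not tested. In bulk tissue, fewer cells of a type and less RNA per cell cannot be told apart. Libraries WT 1 (seminal vesicle RNA) and WT 2 (highest or lowest of all libraries in 22.1% and 20.5% of tested genes) stood apart within WT. With all libraries 4 members were called in PCa against WT, beside 8.54% of all tested genes. Without WT 1 they were 3 (beside 4.52%), with Map3k8 lost. Without WT 2 they were 4 (beside 7.3%), with Map3k8 lost and Map3k2, a gene named here after its values were seen, gained. Without WT 3 only Dusp3 was called (beside 2.48%).

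Between PCa and WT, 4 of the 52 tested members changed by more than 1 on the log2 scale with an adjusted p under 0.05 (edgeR quasi-likelihood test with Benjamini-Hochberg adjustment over all 14034 tested genes). Mapk13, a p38 kinase, Map3k8, a kinase that activates the ERK arm, and Dusp9, an ERK phosphatase, rose. Dusp3, a phosphatase of ERK and JNK, fell. The share of members called, 7.69%, stood beside 8.54% of all tested genes, of which 4.35% were called higher and 4.18% lower. In 16 of the 52 members (30.8%) the PCa and WT libraries did not overlap, 6 above and 10 below, against 37.3% of all tested genes. The median log2 fold change of the members was 0.10, beside 0.01 for all tested genes. In PCa against PIN 3 members were called (5.77%, beside 5.72% of all tested genes): Mapk13 and Dusp9 were higher and Dusp3 was lower. Over all tested genes 2.55% were called higher and 3.17% lower there. PCa and PIN did not overlap in 21 members (40.4%), beside 44.3% of all tested genes. Leaving out WT 3 left 1 call in each PCa comparison, Dusp3, while the calls over all genes fell to 2.48% against WT and 2.11% against PIN. Leaving out PCa 1 gave 8 calls in each, while those over all genes rose to 18.2% and 16.6%. Leaving out any 1 PIN library also left 1 call, Dusp3, in PCa against PIN, beside 0.557 to 1.15% of all genes. The PCa comparisons share the PCa libraries, so their calls are not independent of each other.

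**Figure D1:**
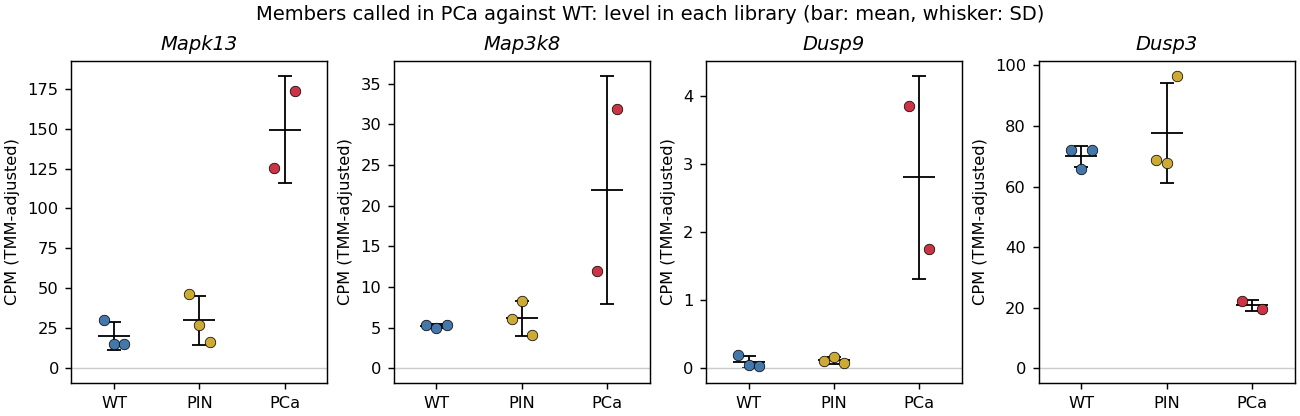
Level in CPM, adjusted by the trimmed mean of M-values (TMM), of the 4 members called in PCa against WT, with 1 point per library, the group mean as a bar and the SD as whiskers (3 WT, 3 PIN and 2 PCa libraries). Both PCa libraries lie above all others for Mapk13, Map3k8 and Dusp9 and below all others for Dusp3.

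Of the p38 kinases, Mapk13 (p38 delta) had 30.2, 15.0 and 15.1 CPM in WT 1 to 3, 46.4, 26.8 and 16.5 in PIN 1 to 3, and 126 and 173 in PCa 1 and PCa 2. Both tumors lay above all 6 other libraries, while PIN and WT overlapped. The log2 fold change was 2.90 ± 0.49 (SE) in PCa against WT, a fold of 7.44 (adjusted p = 0.0162), and 2.32 ± 0.48 in PCa against PIN (adjusted p = 0.0367). PIN against WT gave 0.58 ± 0.43 (adjusted p = 1). The call in PCa against WT was lost without WT 3 (adjusted p = 0.069) and in a fit of only the 2 groups compared (adjusted p = 0.0516). The call in PCa against PIN was lost without WT 3, PCa 2 or any PIN library (adjusted p = 0.053 to 0.131) and with only the 2 groups (adjusted p = 0.0702). The call in PCa against PIN was also lost with same-numbered libraries as a block. Each of these fits kept the direction, with log2 fold changes of at least 2.03.

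Mapk14 (p38 alpha), the broadly expressed p38 kinase, had 88.5, 50.3 and 89.9 CPM in WT, 92.0, 77.2 and 88.2 in PIN and 95.1 and 84.1 in PCa. The 3 groups overlapped, and the log2 fold change in PCa against WT was 0.23 ± 0.27 (adjusted p = 0.626). Mapk12 (p38 gamma), known from muscle, had 22.2, 23.6 and 25.5 CPM in WT, 17.1, 21.9 and 19.6 in PIN and 16.2 and 44.8 in PCa. Its tumors lay on opposite sides of the WT range, and the log2 fold change was 0.36 ± 0.39 (adjusted p = 0.6). That value became -0.54 without PCa 2 and 0.92 without PCa 1. Mapk11 (p38 beta) had 3.91, 17.9 and 3.22 CPM in WT, 5.18, 1.62 and 2.03 in PIN and 14.3 and 2.57 in PCa. It was high in WT 2 and PCa 1 only, so PCa against WT gave 0.01 ± 0.99 (adjusted p = 0.996).

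To compare the p38 genes with each other, counts were divided by exon length and scaled to the same total in each library (TPM). Mapk13 made up 27.7% ± 8.26 (SD, n = 3) of the summed p38 TPM in WT, 37.3% ± 11.5 (n = 3) in PIN and 70.9% ± 1.82 (n = 2) in PCa. The tumors, at 69.6% and 72.2%, lay above the WT range of 22.01 to 37.2% and the PIN range of 25.8 to 48.8%. Mapk14 made up 37.0% ± 8.74, 39.5% ± 7.39 and 15.2% ± 4.32, Mapk12 27.3% ± 4.67, 21.0% ± 5.80 and 11.1% ± 5.50, and Mapk11 7.90% ± 8.58, 2.24% ± 1.02 and 2.79% ± 3.00. The 4 genes together reached 103 to 170 TPM in WT, 138 to 217 in PIN and 455 to 629 in PCa. Unlike the CPM, these sums carry no TMM factor, which does not affect the shares. A single gene took 16.4 to 22.1% of the counts in WT, 13.1 to 17.4% in PIN and 0.00832 to 0.0114% in PCa, and its part in the sums was not tested. Shares of a sum depend on each other, and they depend on the length used: taken from counts, the mean Mapk13 share was 15.4%, 21.0% and 53.4% in WT, PIN and PCa, and that of Mapk14 58.5%, 62.5% and 32.7%. On both scales the 2 PCa means of Mapk13 and Mapk14 stood in the same order.

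**Figure D2:**
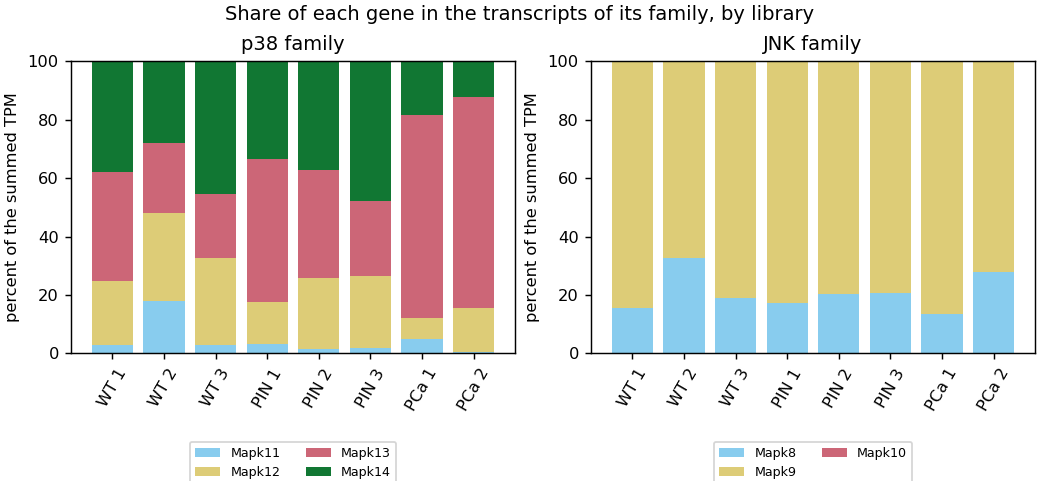
Share of each gene in the summed TPM of the p38 and JNK families, 1 stacked bar per library, in percent. Mapk13 takes 69.6 and 72.2% of the p38 bars in PCa and 22.01 to 48.8% elsewhere, while Mapk10 is too low to be seen.

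Mapk3 (ERK1), a kinase of the ERK arm, had 266, 236 and 226 CPM in WT, 193, 202 and 220 in PIN and 83.2 and 152 in PCa. Its libraries were lower in PIN than in WT, and lower again in PCa, with no overlap between groups. The log2 fold change of -1.04 ± 0.28 in PCa against WT did not pass the test (adjusted p = 0.0618), nor did -0.80 ± 0.28 against PIN (adjusted p = 0.143). Without PCa 2 the values were -1.53 and -1.28, and both passed (adjusted p = 0.0165 and 0.0334). Without PCa 1 they were -0.66 and -0.41, and neither passed (adjusted p = 0.111 and 0.307).

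The JNK kinases showed no call. Mapk9 (JNK2) had 121, 112 and 116 CPM in WT, 120, 106 and 110 in PIN, and 185 and 64.9 in PCa, so the tumors stood on either side of a narrow WT range (log2 fold change 0.10 ± 0.38, adjusted p = 0.894). Without PCa 1 the value was -0.83 (adjusted p = 0.0401), short of the fold limit. Mapk8 (JNK1) had 31.0, 73.3 and 37.2 CPM in WT, 34.6, 37.1 and 39.1 in PIN and 39.1 and 34.4 in PCa, with WT 2 alone high (log2 fold change -0.36 ± 0.36, adjusted p = 0.568, and 0.11 without WT 2). Mapk10 (JNK3), known from brain, did not pass the filter and reached 1.14 CPM at most, in WT 1. In TPM, Mapk9 made up 77.5% ± 8.74 of the JNK sum in WT, 80.5% ± 1.81 in PIN and 79.3% ± 10.3 in PCa.

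Among the other MAP kinases, Mapk6 (ERK3), an atypical kinase that is regulated largely through its stability, had 55.6, 65.9 and 61.1 CPM in WT, 62.6, 54.9 and 61.2 in PIN and 95.5 and 103 in PCa. Both tumors lay above all other libraries. The log2 fold change of 0.71 ± 0.17 passed the adjusted p in PCa against WT (0.0455) but not the fold limit, and PCa against PIN gave 0.74 ± 0.17 (adjusted p = 0.0505). Mapk7 (ERK5), the target of Map2k5, had 12.4, 9.52 and 11.6 CPM in WT, 7.96, 9.99 and 10.8 in PIN and 8.01 and 10.2 in PCa, with overlapping groups (log2 fold change -0.29 ± 0.29, adjusted p = 0.565). Mapk4 (ERK4), the close relative of Mapk6, had 2.37, 0.634 and 2.38 CPM in WT, 2.27, 2.89 and 2.52 in PIN and 0.322 and 11.4 in PCa. Its tumors held the lowest and the highest level of the series, and the log2 fold change of 1.70 ± 1.14 did not pass the test (adjusted p = 0.379). That value was 2.67 without PCa 1, where it passed (adjusted p = 0.0316), and -2.45 without PCa 2. Mapk15 did not pass the filter.

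None of the 7 Map2k genes was called. Map2k2, a kinase of the ERK arm, had 110, 79.5 and 71.8 CPM in WT, 56.4, 59.3 and 67.8 in PIN and 56.9 and 46.2 in PCa. All 5 lesion libraries lay below the WT range, with log2 fold changes of -0.51 ± 0.21 in PIN (adjusted p = 1) and -0.76 ± 0.24 in PCa (adjusted p = 0.0941). Map2k1, its partner in the ERK arm, had 46.9, 57.8 and 38.8 CPM in WT, 39.9, 36.3 and 35.9 in PIN and 54.4 and 46.6 in PCa, and PCa overlapped WT (log2 fold change 0.08 ± 0.22, adjusted p = 0.847). Map2k3, which activates p38, had 68.9, 277 and 57.2 CPM in WT, 56.5, 51.1 and 68.3 in PIN and 76.8 and 70.0 in PCa. Map2k4, which activates JNK and p38, had 72.3, 221 and 80.7 CPM in WT, 94.9, 80.0 and 102 in PIN and 81.1 and 85.3 in PCa. WT 2 stood far above every other library for both genes. Their log2 fold changes in PCa against WT were -0.87 ± 0.65 (adjusted p = 0.428) and -0.58 ± 0.47 (adjusted p = 0.469), and without WT 2 they were 0.22 and 0.12.

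Map2k5, which activates Mapk7, had 15.0, 14.4 and 12.8 CPM in WT, 14.4, 12.7 and 14.5 in PIN and 13.3 and 15.0 in PCa, and the groups overlapped (log2 fold change 0.02 ± 0.23, adjusted p = 0.976). Map2k6, which activates p38, had 7.76, 2.90 and 8.56 CPM in WT, 7.34, 10.2 and 8.93 in PIN and 3.604 and 9.19 in PCa, with WT 2 and PCa 1 low (log2 fold change -0.00 ± 0.57, adjusted p = 0.998). Map2k7, which activates JNK, had 54.1, 57.4 and 65.0 CPM in WT, 50.1, 62.2 and 54.1 in PIN and 50.0 and 76.7 in PCa. Its tumors lay on opposite sides of the WT range (log2 fold change 0.11 ± 0.23, adjusted p = 0.805).

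**Figure D3:**
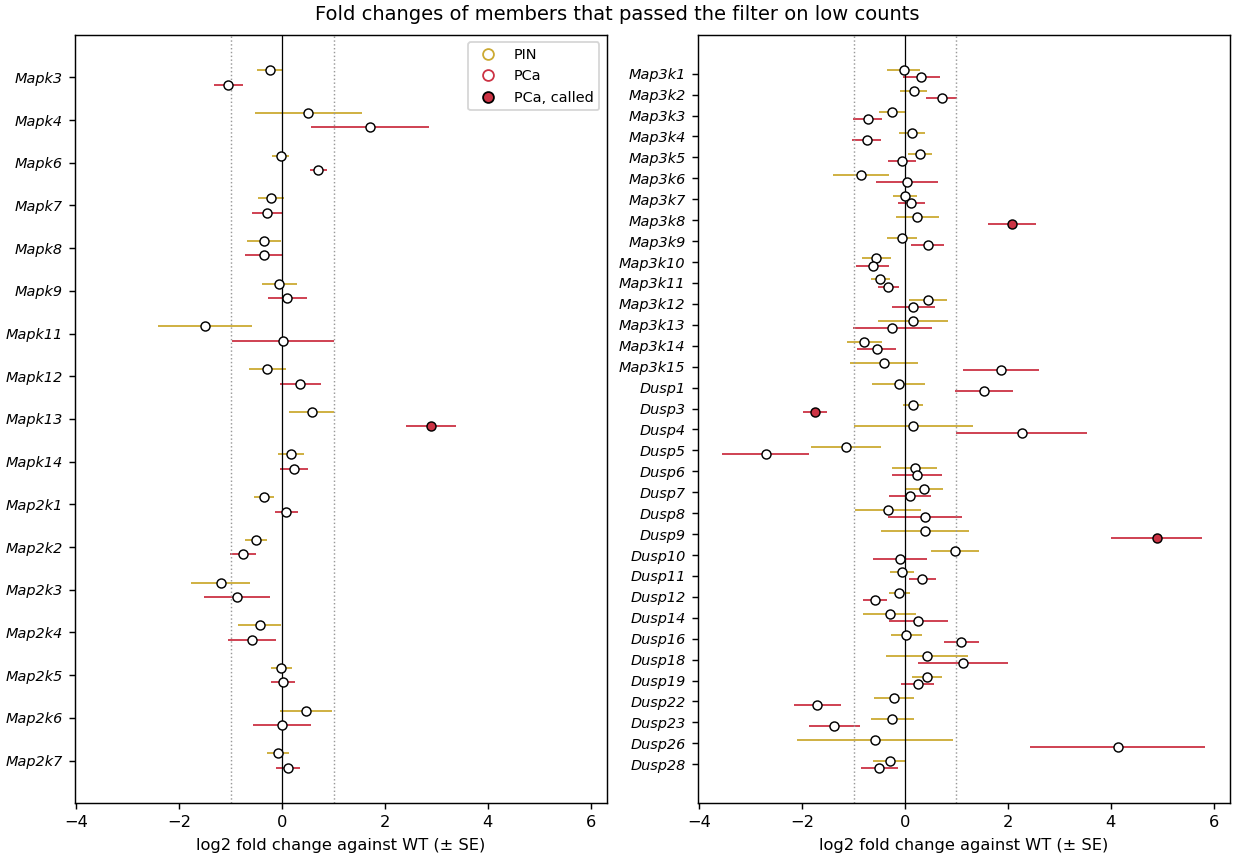
Log2 fold change against WT, with its SE, of 51 of the 52 tested members in PIN and in PCa, with the fold limit as dotted lines and called values filled. Filled points appear for Mapk13, Map3k8, Dusp3 and Dusp9 in PCa, at 2.90, 2.07, -1.74 and 4.89, and for no member in PIN.

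Of the 15 tested Map3k genes, Map3k8 was called. Map3k8 (TPL2) relays toll-like receptor and cytokine signals to the ERK arm. It had 5.29, 4.98 and 5.34 CPM in WT, 6.05, 8.34 and 4.07 in PIN and 11.97 and 31.9 in PCa. Both tumors lay above all other libraries, with PCa 2 well above PCa 1. The log2 fold change was 2.07 ± 0.47 in PCa against WT, a fold of 4.21 (adjusted p = 0.0368), and 1.83 ± 0.46 in PCa against PIN (adjusted p = 0.0617). Without PCa 2 the log2 fold change fell to 1.22 and the call was lost. It was also lost without any 1 WT or PIN library (adjusted p = 0.0559 to 0.111), with only the 2 groups compared (adjusted p = 0.114) and with same-numbered libraries as a block. PCa against PIN passed without PCa 1 (log2 fold change 2.38, adjusted p = 0.00906). The leukocyte marker sum was 424 CPM in PCa 1 and 39.1 in PCa 2, and its part in the Map3k8 result was not tested.

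Several other Map3k genes are given by their ranges, and no Map3k gene other than Map3k8 was called. Map3k7 (TAK1), the most abundant per length with a mean of 44.1 TPM over the 8 libraries, ranged from 67.3 to 100 CPM in WT, 80.8 to 83.5 in PIN and 68.7 to 110 in PCa (log2 fold change 0.12 ± 0.26, adjusted p = 0.798). Map3k3 (MEKK3; mean 43.7 TPM) ranged from 53.2 to 84.9, from 44.3 to 58.5 and from 33.98 to 43.1 CPM, with PCa below both other groups (log2 fold change -0.73 ± 0.28, adjusted p = 0.146). Map3k11 (MLK3; mean 31.3 TPM) ranged from 34.6 to 48.3, from 29.2 to 31.5 and from 32.8 to 34.9 CPM, with PIN below both other groups (PCa against WT log2 fold change -0.32 ± 0.21, adjusted p = 0.358). Map3k4 (MEKK4) ranged from 29.0 to 52.3, from 45.6 to 51.4 and from 25.5 to 27.3 CPM (log2 fold change -0.74 ± 0.28, adjusted p = 0.139). Both tumors lay below the other libraries, the nearest being WT 2 at 29.0. Its second gene entry overlaps it on the other strand but reached 0.448 CPM at most.

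Map3k15 had 12.2 to 31.7 CPM in WT, 10.2 to 24.0 in PIN, and 22.4 and 126 in PCa 1 and PCa 2. Only PCa 2 was high, and the log2 fold change of 1.87 ± 0.73 did not pass the test (adjusted p = 0.149), though it did without PCa 1 (2.64, adjusted p = 0.021). Without PCa 2 the value was 0.16 (adjusted p = 0.897). Map3k15 overlaps Pdha1, a gene on the opposite strand, over 1143 bases of the gene spans, and the annotated exons of the 2 genes share 603 bases. Pdha1 had 245 to 407 CPM, and the strand setting of the counting is not given in the sources used here, so reads of the 2 genes may not be separated in the shared exons.

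The 2 called phosphatases are shown by the stretch that encodes the catalytic site, with the codons from the catalytic cysteine to the arginine in capitals, because both belong to the enzyme class that acts on the activation loops above. Dusp3 was read from exon 4 of 4 on the minus strand (chr11:101836204-101836248), and Dusp9 from exon 4 of 4 on the plus strand (chrX:70887449-70887493).
Dusp3: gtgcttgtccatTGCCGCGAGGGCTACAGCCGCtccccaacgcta
Dusp9: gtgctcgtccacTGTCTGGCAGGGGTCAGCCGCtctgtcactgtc

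Dusp3 (VHR), a small phosphatase that acts on ERK and JNK, had 72.0, 66.0 and 72.0 CPM in WT, 68.7, 67.7 and 96.6 in PIN and 22.2 and 19.6 in PCa. Both tumors lay far below all 6 other libraries, and PIN and WT overlapped. The log2 fold change was -1.74 ± 0.23 in PCa against WT, a fold of 0.299 (adjusted p = 0.00867), and -1.89 ± 0.23 in PCa against PIN (adjusted p = 0.0105). In PCa against WT the call held without each library in turn but not with only the 2 groups compared (adjusted p = 0.0557), and in PCa against PIN it held in all 16 other fits. It was also among the 3 Dusp genes of highest level per length, with a mean of 42.4 TPM. Overlapping genes on the other strand reached 0.301 CPM at most.

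Dusp9 (MKP-4), which acts mainly on ERK, had 0.198, 0.0453 and 0.0366 CPM in WT, 0.108, 0.172 and 0.0753 in PIN and 3.86 and 1.75 in PCa. In reads these were 4, 1 and 1 in WT, 3, 5 and 2 in PIN, and 120 and 51 in PCa. Dusp9 passed the filter through the PCa libraries alone, so it had to differ, and its test supports nothing on its own. The fitted log2 fold change was 4.89 ± 0.88 in PCa against WT (adjusted p = 0.0203) and 4.51 ± 0.85 against PIN (adjusted p = 0.0305). From the pooled reads, 171 in PCa against 6 in WT, the ratio of CPM was 32.8 (95% exact interval 14.8 to 90.6, counting error only). Against the 10 reads of PIN it was 23.6 (12.5 to 50.0). When PCa 1 or PCa 2 was left out, Dusp9 failed the filter. The call against WT was lost without WT 3 (adjusted p = 0.0757) and with only the 2 groups compared (adjusted p = 0.0938), and the call against PIN without WT 3 or any 1 PIN library (adjusted p = 0.0553 to 0.133). Both calls were also lost with same-numbered libraries as a block.

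Of the Dusp genes not called, Dusp11, an RNA phosphatase, had the highest level per length (mean 87.7 TPM) and ranged from 163 to 213 CPM in WT, 173 to 186 in PIN and 174 to 296 in PCa (log2 fold change 0.34 ± 0.26, adjusted p = 0.453). Dusp16 (MKP-7), a JNK and p38 phosphatase, ranged from 50.3 to 91.9 CPM in WT, 54.2 to 98.8 in PIN and 142 to 156 in PCa (mean 40.8 TPM). Both tumors lay above all other libraries, but the log2 fold change of 1.10 ± 0.34 did not pass the test (adjusted p = 0.0832). DESeq2, another test, called Dusp16 in PCa against WT (adjusted p = 0.0246) and in PCa against PIN. Dusp5, an ERK phosphatase of the nucleus that ERK signalling induces, ranged from 9.74 to 42.1 CPM in WT and 9.21 to 10.4 in PIN and had 5.34 and 1.23 in PCa. Both tumors lay below the others, and WT 2 held the highest value (log2 fold change -2.71 ± 0.84, adjusted p = 0.0866). DESeq2 called Dusp5 in PCa against WT. Without PCa 1 it passed (log2 fold change -4.10, adjusted p = 0.0303), while without WT 2 or PCa 2 it did not (-1.76 and -1.99, adjusted p = 0.144 and 0.186).

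Dusp22 and Dusp23, named here after their values were seen, also had both tumors below all other libraries. Dusp22 had 13.5, 21.1 and 15.4 CPM in WT, 13.5, 13.9 and 15.7 in PIN and 7.56 and 2.67 in PCa (log2 fold change -1.70 ± 0.46, adjusted p = 0.0624). Dusp23 had 15.4, 10.1 and 6.08 CPM in WT, 9.07, 7.27 and 10.2 in PIN and 5.28 and 2.85 in PCa (log2 fold change -1.37 ± 0.49, adjusted p = 0.12). DESeq2 called both in PCa against WT (adjusted p = 0.00421 for Dusp22 and 0.039 for Dusp23), and limma called Dusp22 (adjusted p = 0.0393). Without PCa 1 the log2 fold change of Dusp22 was -2.63 and it passed (adjusted p = 0.00627), and without PCa 2 it was -1.12 and did not (adjusted p = 0.0902). Against PIN, Dusp22 was called without PCa 1 and with DESeq2.

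For Dusp26 and Dusp4 the fold change rested on 1 tumor. Dusp26, known from neural tissue, had 0.317 to 1.21 CPM in WT, 0.188 to 1.10 in PIN and 0.0644 and 27.9 in PCa. Its tumors held the lowest and the highest level of the series. DESeq2 called Dusp26 against WT and PIN, but the edgeR log2 fold change of 4.13 ± 1.71 against WT did not pass (adjusted p = 0.166). It was 5.14 without PCa 1 (adjusted p = 0.0107) and -3.51 without PCa 2 (adjusted p = 0.211). Dusp4 (MKP-2), a nuclear phosphatase that ERK signalling induces, had 0.512 to 3.96 CPM in WT, 0.654 to 3.92 in PIN and 15.4 and 1.20 in PCa. Only PCa 1 was high, and the log2 fold change of 2.27 ± 1.28 (adjusted p = 0.294) became -0.51 without PCa 1.

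Counted library by library, 6 of the 52 tested members (11.5%) differed by over 4-fold between the 2 tumors on log2(CPM + 0.5), beside 14.4% of all tested genes. Dusp26, Mapk4 and Map3k15 were higher in PCa 2, and Dusp4, Mapk11 and Dusp1 were higher in PCa 1. Dusp1 (MKP-1), an immediate early phosphatase named here after its values were seen, had 10.3, 6.71 and 10.9 CPM in WT, 9.79, 7.82 and 8.10 in PIN and 44.6 and 9.63 in PCa (log2 fold change 1.54 ± 0.57, adjusted p = 0.128). Its fold rested on PCa 1: the log2 fold change of Dusp1 was 0.06 without PCa 1 (adjusted p = 0.932) and 2.28 without PCa 2, when it passed (adjusted p = 0.0109). Without PCa 2 Dusp1 was also called against PIN, as it was with DESeq2. For 9 members (17.3%, beside 12.2% of all tested genes) the tumors lay on opposite sides of the WT range. PCa 2 was the highest of the 8 libraries for 18 members (34.6%, beside 22.3% of all tested genes), and PCa 1 for 6 (11.5%, beside 20%). PCa 2 was also the lowest for 14 members (26.9%, beside 25.1%), and PCa 1 for 6 (11.5%, beside 18.7%). With 1 library of each tumor, these differences between tumors have no test.

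**Figure D4:**
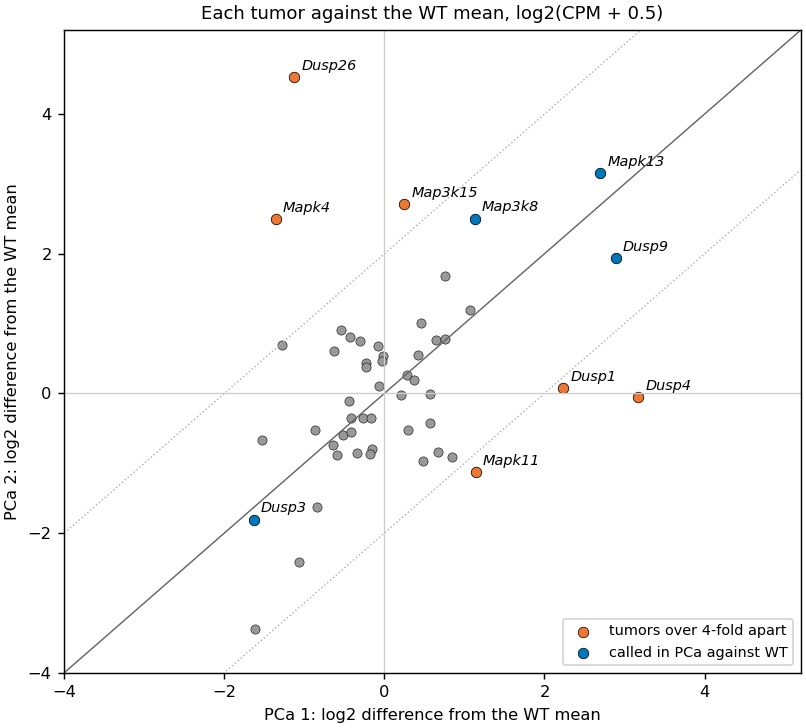
Each tested member's difference from the WT mean in PCa 1 (horizontal axis) and PCa 2 (vertical axis), on log2(CPM + 0.5), with the diagonal of equal change and dotted lines at 4-fold between the tumors. The 4 called members fall within the dotted lines, and 6 members, led by Dusp26 and Mapk4, fall outside them.

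In PIN against WT no member was called, beside 0% of all tested genes. At an unadjusted p under 0.05 there were 3 members (Map2k2, Map3k11 and Map3k14, all lower in PIN) and 492 of the 14034 genes. DESeq2 and limma called no member either. PIN and WT did not overlap in 9 members (17.3%, beside 12.9% of all tested genes), 3 above and 6 below. Of the kinases with values above, Mapk3, Mapk12, Map2k2 and Map3k11 were among the 6 below. The median log2 fold change of the members was -0.06, beside -0.02 for all tested genes.

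The 9 members that did not pass the filter were Mapk10, Mapk15, Dusp2, Dusp13, Dusp15, Dusp21, Dusp27 and the second entries of Dusp8 and Map3k4. The highest of them was Dusp2 in PCa 2, at 1.23 CPM. Dusp21 and the second Dusp8 entry had 0 counts in every library, which allows up to 3 counts, or 0.0959 to 0.148 CPM, in a library.

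Around the members, 93 genes from 5 lists were tested. The lists hold genes of the same pathways and, in the last, other phosphatases, which include Epm2a, a glycogen phosphatase. All are counted as pathway genes below. In PCa against WT 4 were called higher and 1 lower (5.38%, beside 8.54% of all tested genes). In PCa against PIN 1 was called higher and 2 lower (3.23%, beside 5.72%), and in PIN against WT none was called. Erbb2, the receptor kinase at the head of the ERK arm, had 85.4, 56.8 and 59.2 CPM in WT, 73.3, 56.4 and 55.5 in PIN and 287 and 116 in PCa. It rose in PCa against WT (log2 fold change 1.58 ± 0.38, adjusted p = 0.044) and against PIN (1.71 ± 0.38, adjusted p = 0.0455), and it was the only call among 22 tested genes upstream of ERK. PCa 1 held the highest level: without it the log2 fold changes were 0.80 (adjusted p = 0.111) and 0.92 (adjusted p = 0.0778). Each Erbb2 call was lost in 11 of 16 other fits. Among 23 tested response genes of ERK, Areg, a ligand of the EGF receptor, had 0.0494, 0.0453 and 0.0732 CPM in WT, 1.04, 0.103 and 0.0753 in PIN and 2.45 and 38.3 in PCa. In reads these were 1, 1 and 2 in WT, 29, 3 and 2 in PIN, and 76 and 1117 in PCa. Areg was over 1 CPM in both PCa libraries and, barely, in PIN 1, so it passed the filter through PCa and had to differ, and its test supports nothing on its own. The fitted log2 fold change in PCa against WT was 8.37 ± 1.64 (adjusted p = 0.0248), and without PCa 2 it was 5.33 (adjusted p = 0.0566). Spry1, an inhibitor of receptor signalling to ERK, had 46.6, 44.7 and 42.8 CPM in WT, 29.6, 41.2 and 30.5 in PIN and 12.9 and 4.56 in PCa. It fell in PCa against WT (-2.36 ± 0.44, adjusted p = 0.0229) and against PIN (-1.95 ± 0.43, adjusted p = 0.045). Against WT the value was -3.28 without PCa 1 and -1.78 without PCa 2.

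Of 26 tested p38 and JNK partners, Map4k4, a kinase upstream of JNK, rose from 45.1, 58.1 and 44.9 CPM in WT to 117 and 87.7 in PCa, with 64.3, 43.3 and 51.3 in PIN (log2 fold change 1.05 ± 0.25, adjusted p = 0.0408). Of 11 kinases that MAP kinases activate, Mapkapk3, a target of p38, rose from 4.99, 3.99 and 2.56 CPM in WT to 14.4 and 20.8 in PCa, with 6.73, 4.27 and 2.94 in PIN (2.19 ± 0.46, adjusted p = 0.0297). Of 11 other phosphatases, Epm2a, the glycogen phosphatase laforin, was lower in PCa than in PIN (-1.97, adjusted p = 0.0429), with 8.89, 12.1 and 11.5 CPM in PIN, 2.03 and 3.50 in PCa and 9.54, 5.39 and 9.63 in WT. In PCa against WT the list medians of the log2 fold change were 0.20 upstream of ERK, 0.27 for ERK response genes, 0.12 for p38 and JNK partners, -0.30 for the activated kinases and -0.26 for the other phosphatases, beside 0.01 for all tested genes. Every one of these 5 calls in PCa against WT was lost when WT 1 or WT 3 was left out, when none of the 93 genes was called, beside 4.52 and 2.48% of all tested genes. Without PIN 1, PIN 2 or PIN 3 the calls in PCa against WT were 3, 2 and 1 (beside 4.39, 5.2 and 3.19% of all tested genes), and without PCa 2 they were 9 (beside 10.1%). In PCa against PIN there were 0 calls without WT 1, WT 3 or any 1 PIN library, 8 without PCa 1 (beside 16.6% of all tested genes) and 7 without PCa 2 (beside 7.05%).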

How the data were processed

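Total RNA of 8 mouse prostate libraries (3 WT, 3 PIN, 2 PCa) was sequenced. Per the labels and the paper, the authors trimmed adapters with cutadapt 1.9.1, aligned the reads to mm9 with HISAT2 2.1.0 and counted them per gene with HTSeq 0.6.1, and the deposited values are raw counts. The deposited table also gives each gene's summed exon length, another value that is no measurement of a sample and was used for TPM. The strand setting of the counting and the ages of these animals are not given in the sources used here. No column of other samples was in the table (0 columns left out).

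Counts were tested in R 4.3.3 with edgeR 4.0.16 (quasi-likelihood F-test, TMM). Genes over 1 CPM in at least 2 libraries were kept (14034), a single model of the 3 groups took in all 8 libraries, leaving 5 residual degrees of freedom, and p-values were adjusted over all tested genes by the Benjamini-Hochberg method. Calls needed a change of more than 1 on the log2 scale, up or down, and an adjusted p under 0.05. The fit was tested on simulated data. CPM were computed here with the TMM-adjusted library sizes. TPM were counts divided by the deposited exon lengths and scaled to the same total in each library, with no TMM factor. DESeq2 1.42.0, limma 3.58.1, other filters and scaling, a replicate block and leaving out each library were alternatives. Library depth of 21751803 to 29730420 counts makes 3 counts worth 0.0959 to 0.148 CPM, and intervals and floors cover counting error only. The labels do not say that each library is a separate animal, so p-values measure only the spread between these libraries, which may be technical. WT libraries carry other number series in their labels than the lesion libraries, so a preparation batch, if there was one, cannot be told apart from condition. Within WT, WT 1 is also numbered apart from WT 2 and WT 3.

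The members, the pathway and marker lists and the tests were chosen with earlier results of these data known. Values in every library are given for each tested Mapk and Map2k gene but 1 that is not reported here, each called Map3k or Dusp gene and each called pathway gene. The 3 Map3k and 3 Dusp genes of highest mean TPM, and those of largest fold change not called in PCa against WT, are given by range. Gene coordinates of all 61 members matched the GENCODE vM1 annotation of mm9, from which the printed coding sequence was taken.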

Additional observations from a re-analysis of the deposited data

How the results depend on the processing

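The members called in PCa against WT, 4 beside 8.54% of all tested genes, were 10 with DESeq2 (beside 17.7%), 6 with limma (9.43%), 5 with upper-quartile scaling (7.9%), 0 with only the 2 groups compared (0.952%) and 2 with the replicate block (2.94%). In PCa against PIN, 3 beside 5.72%, they were 9 with DESeq2 (14.1%), 2 with only the 2 groups compared (2.81%) and 1 with the replicate block (1.08%). Other filters and the newer quasi-likelihood method left both counts as they were. Leaving out 1 library gave 1 (without WT 3, beside 2.48% of all tested genes) to 8 (without PCa 1, beside 18.2%) in PCa against WT, and 1 (without WT 3, beside 2.11%, or any PIN library, beside 0.557 to 1.15%) to 8 (without PCa 1, beside 16.6%) in PCa against PIN. In PIN against WT the count was 0 throughout. When a PCa library was left out, the lone tumor was assumed to vary like the other groups. The direction of the called members was kept in every fit that tested them (14 of 16 for Dusp9, which failed the filter without either PCa library), and Dusp3 was lost in 1 of 16, PCa against WT with only the 2 groups compared (adjusted p = 0.0557). The deviations of same-numbered libraries had a mean r of 0.10 over 7 pairs (lowest -0.06, highest 0.284 for WT 1 and PCa 1), against -0.05 for other pairs. The deviations were taken from group means, so the r of same-numbered and of other pairs depend on each other. The check therefore cannot decide whether the numbers pair the samples. With the replicate block the calls of Map3k8 (adjusted p = 0.118) and Dusp9 (0.0647) in PCa against WT, and of Mapk13 (0.0664) and Dusp9 (0.101) in PCa against PIN, were lost.

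Of the 93 tested pathway genes, those called in PCa against WT (5 with all libraries) were 17 with DESeq2 (beside 17.7% of all tested genes), 0 with only the 2 groups compared (0.952%), 1 with the replicate block (2.94%) and 0 to 9 with 1 library left out. In PCa against PIN (3) they were 1 with upper-quartile scaling (beside 5.11% of all tested genes), 13 with DESeq2 (14.1%), 6 with the newer quasi-likelihood method (7.4%), 0 with only the 2 groups compared (2.81%), 1 with the replicate block (1.08%) and 0 to 8 with 1 library left out. These fits for pathway genes were chosen after seeing the data. In counts, mean shares of Mapk13 in WT, PIN and PCa were 15.4, 21.0 and 53.4% and of Mapk14 58.5, 62.5 and 32.7%, because exon length no longer enters.

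Signs changed only for members not called, in 54 of 829 values over the 52 tested members and 16 alternative fits in PIN against WT, 57 of 830 in PCa against WT and 37 of 830 in PCa against PIN. In PCa against WT the log2 fold change of Mapk11 was -0.0042 with limma, -0.053 with no filter, -0.020 with filterByExpr, -0.019 with only the 2 groups compared and -0.57 with the replicate block. That of Mapk9 was -0.086 with limma and -0.041 with the replicate block, that of Map2k5 was -0.0084 with no filter, and that of Map2k6 was 0.020 with DESeq2 and 0.070 with the replicate block. Among the members whose fold changes are printed, leave-one-out ranges that crossed 0 were -0.079 to 0.68 for Dusp11, -3.51 to 5.14 for Dusp26, -0.51 to 3.75 for Dusp4, -0.051 to 0.24 for Map2k1, -1.24 to 0.22 for Map2k3, -0.86 to 0.12 for Map2k4, -0.059 to 0.11 for Map2k5, -0.82 to 0.53 for Map2k6, -0.22 to 0.39 for Map2k7, -0.24 to 0.43 for Map3k7, -1.68 to 1.24 for Mapk11, -0.54 to 0.92 for Mapk12, -2.45 to 2.67 for Mapk4, -0.58 to 0.11 for Mapk8, -0.83 to 0.68 for Mapk9 and -0.013 to 0.17 for Mapk14 (PCa against PIN). The cause of these changes was not tested. Mapk3 passed with upper-quartile scaling (adjusted p = 0.0476), DESeq2 (0.00626) and limma (0.0401). Depth limits Dusp9, with 1 to 5 reads in each WT and PIN library.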
